A study of Mus musculus with 20 samples.

Results

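Antiviral interferon-stimulated effectors are the genes whose products recognise viral nucleic acid or block steps of viral replication, and whose transcription rises when cells receive interferon. A list of 38 such genes was followed through a count table of 45706 mouse genes. Members were found by gene identifier and had to reach 1 CPM (the gene's counts in relation to the scaled library total, the usual unit of RNA-seq levels) in at least 2 of 20 libraries. All 38 of the 38 listed genes passed, among 14023 genes tested in all, and they lie on 13 chromosomes. The list was not picked by a measured value of these libraries, but it was put together with earlier results of the same data known.

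RNA had been measured in primary fibroblasts grown from C57BL/6 mouse embryos, all of which lacked c-Rel, an NF-kB subunit. The groups comprised 2 genotypes. The first, crel-/-, carried the c-Rel loss alone and served as the control. The second, labelled crel-/-RelA-TA-KI and called the knock-in below, carried a knock-in at RelA as well, and the labels state neither what TA means nor which residues differ. Each genotype was left unstimulated (0 h) or received 10 ng/ml IL-1b, 10 ng/ml TNF or 100 ng/ml LPS for 0.5, 1 or 3 h, after a night in medium with 0.5% serum. Every one of the 20 groups is 1 library, and wild-type fibroblasts with c-Rel were not among the groups. The labels name no separate cultures, and the spread behind each p-value is that between single libraries, which may be in part technical. In tests of a response over both genotypes, that spread also holds any difference of the response between them.

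Type I interferon binds its receptor, the kinases JAK1 and TYK2 phosphorylate STAT proteins, and these join IRF9 to form a complex that binds interferon-stimulated response elements in promoters. LPS is a bacterial lipid that is sensed by TLR4, which signals to NF-kB through MYD88 and to IRF3 and interferon-beta through TICAM1. IL-1b and TNF are inflammatory cytokines that signal to NF-kB through their own receptors.

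Total counts lay between 9248151 and 12574135 per library, so the floor of 3 counts amounted to 0.239 to 0.324 CPM of the unscaled total. Scaling factors of both LPS 3 h libraries were low, at 0.722 and 0.732, and those of the other libraries were 0.979 or higher. All 11 of 11 fibroblast markers were measured, at summed levels of 56921 to 88004 CPM. All 15 of 15 macrophage markers were measured too, from 3016 CPM in the knock-in after IL-1b for 0.5 h to 6175 CPM in crel-/- after TNF for 3 h. Of 6 markers of plasmacytoid dendritic cells, strong producers of interferon, Tcf4 and Spib passed the filter. Of the other members of that list, Klk1 had 0 counts in every library, Siglech at most 1, Ly6d at most 2 and Ccr9 at most 4. Of the endothelial markers 3 of 5 passed (11.0 to 76.1 CPM in sum), and of the epithelial markers 2 of 5 (1.35 to 6.53 CPM in sum). In bulk RNA, fewer cells of a type and less RNA per cell cannot be told apart.

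The libraries taken before 3 h fell into 2 sets that ran with the agent. In the 6 libraries taken at 0 h or at 0.5 and 1 h of TNF, the macrophage markers summed to 4695 to 5607 CPM and Fn1, which encodes the matrix protein fibronectin, lay between 4126 and 5873 CPM. In the 8 libraries taken at 0.5 and 1 h of IL-1b or LPS, the same values were 3016 to 4326 and 8056 to 10140 CPM. Neither range overlapped between the sets, and the separation was present at 0.5 h in both genotypes. Fn1 is 1 of the 11 fibroblast markers, whose summed levels did overlap (57737 to 71528 CPM against 56921 to 70519 CPM). Single markers did not all follow. After 0.5 h of IL-1b Fn1 changed by 0.86 and Vim by 0.43 on the log2 scale, and Dcn by -0.93. In the macrophage list Cd14 changed by 1.21 after 0.5 h of LPS, where Lyz2 changed by -0.52. An early effect of the agents and a difference between cultures cannot be told apart here. Comparisons of IL-1b or LPS with 0 h therefore cross these sets, and the part of this split in the results was not tested. For that reason, values within the series of one agent are given beside those against 0 h.

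Members that moved together after LPS allow a look at their promoters. RefSeq windows on GRCm38.p6, from 250 bases before to 50 bases after the start site, were matched for 29 of 38 members. The core of the interferon-stimulated response element, searched as GAAANNGAAA on both strands with overlapping matches counted, occurred in the windows of 15 of the 29 (51.7%) and of 1079 of 27025 genes (3.99%). A gamma-activated site, TTCNNNGAA on both strands, occurred in 6 of 29 (20.7%) against 9.55% of all genes, and the kappa-B core GGGNNNTTCC in 5 of 29 (17.2%) against 6.31%. A match describes letters in the window and not a bound site. The 200 bases before the start site are shown for 6 of the members described below, 4 with and 2 without the core. They are written 5′ to 3′ on the strand of the gene, with bases of the core, read on either strand, in capitals.
Ifit1 (chr19:34640689-34640888, plus strand): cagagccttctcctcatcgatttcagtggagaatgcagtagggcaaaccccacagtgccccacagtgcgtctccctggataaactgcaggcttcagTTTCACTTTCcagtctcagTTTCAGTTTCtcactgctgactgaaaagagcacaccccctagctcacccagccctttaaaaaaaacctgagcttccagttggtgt
Ifit1bl1 (chr19:34601969-34602168, minus strand): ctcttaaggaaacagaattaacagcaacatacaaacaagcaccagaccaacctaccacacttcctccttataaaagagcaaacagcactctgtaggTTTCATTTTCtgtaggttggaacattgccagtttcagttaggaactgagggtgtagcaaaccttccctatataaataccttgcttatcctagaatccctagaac
Isg15 (chr4:156200819-156201018, minus strand): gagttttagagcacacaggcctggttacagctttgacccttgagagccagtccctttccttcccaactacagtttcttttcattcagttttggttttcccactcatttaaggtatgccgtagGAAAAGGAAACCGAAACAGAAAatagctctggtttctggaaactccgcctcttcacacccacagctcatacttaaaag
Rsad2 (chr12:26456453-26456652, minus strand): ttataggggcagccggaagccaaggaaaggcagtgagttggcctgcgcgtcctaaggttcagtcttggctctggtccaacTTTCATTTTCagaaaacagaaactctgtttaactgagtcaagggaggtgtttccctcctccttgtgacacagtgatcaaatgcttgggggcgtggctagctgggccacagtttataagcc
Oasl1 (chr5:114923040-114923239, plus strand): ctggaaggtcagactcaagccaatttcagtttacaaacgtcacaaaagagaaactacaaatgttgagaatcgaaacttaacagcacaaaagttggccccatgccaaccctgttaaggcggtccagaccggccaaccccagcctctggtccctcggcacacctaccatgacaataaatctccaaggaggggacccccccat
Oasl2 (chr5:114896734-114896933, plus strand): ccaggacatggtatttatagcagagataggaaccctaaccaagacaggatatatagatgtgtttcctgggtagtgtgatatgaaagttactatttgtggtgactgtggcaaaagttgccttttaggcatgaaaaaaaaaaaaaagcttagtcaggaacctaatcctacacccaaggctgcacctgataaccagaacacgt
Ifit1 held separate cores that began 104 and 85 bases before the start site. In Isg15 overlapping cores began 78, 72 and 66 bases before it and make up 1 run of capitals. The core began 104 bases before the start in the Ifit1bl1 window shown and 120 bases before it in Rsad2. Another Ifit1bl1 window, not shown, held a core that began 23 bases before its own start site. Oasl1 and Oasl2, neighbours on chromosome 5, had no match in these letters. The members with a core had a median LPS 3 h change of 4.72 on the log2 scale, those with a window and no core 4.66 and those without a window 4.62, so the medians lay close together.

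After 3 h of LPS every member was higher than at 0 h in both genotypes. All 38 members rose (edgeR quasi-likelihood test with genotype and condition as terms, adjusted p at most 0.05), where 29.2% of all genes tested rose. The median change was 4.67 on the log2 scale, against a median near 0 for all genes, and ran from 1.83 for Bst2 to 9.73 for Ifit1bl1. For all 38 members both LPS 3 h libraries lay above each of the 18 other libraries, and the share of all genes with this pattern was not counted. The lower LPS 3 h value exceeded the highest other library 1.64-fold for Bst2 and 74.2-fold for Ifit1bl1, with a median of 5.78-fold. Within the LPS series, which holds no 0 h library, all 38 were also higher at 3 h than at 1 h (median 4.34, 25.9% of all genes higher). Counts of the members made up 4.19% and 4.54% of the LPS 3 h libraries and 0.115% to 0.449% of the others. Summed macrophage markers in the LPS 3 h libraries were 3200 and 4707 CPM, inside the range of the other libraries. The fibroblast markers summed to 88004 CPM (crel-/-) and 86254 CPM (knock-in), against at most 76725 CPM elsewhere, with 6 of 11 markers higher at LPS 3 h than at 0 h. The endothelial markers summed to 76.1 CPM (crel-/-) and 61.3 CPM (knock-in), against at most 24.4 CPM elsewhere, through Kdr (69.8 and 54.3 CPM), while Cdh5 and Tek did not pass the test. The part of these markers in the result was not tested. With library totals alone as the scale, the median of all genes shifted by -0.60, the members' median was 4.07 and all 38 remained called as higher, while the calls over all genes went from 4099 higher and 3962 lower to 1706 higher and 9110 lower.

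**Figure D1:**
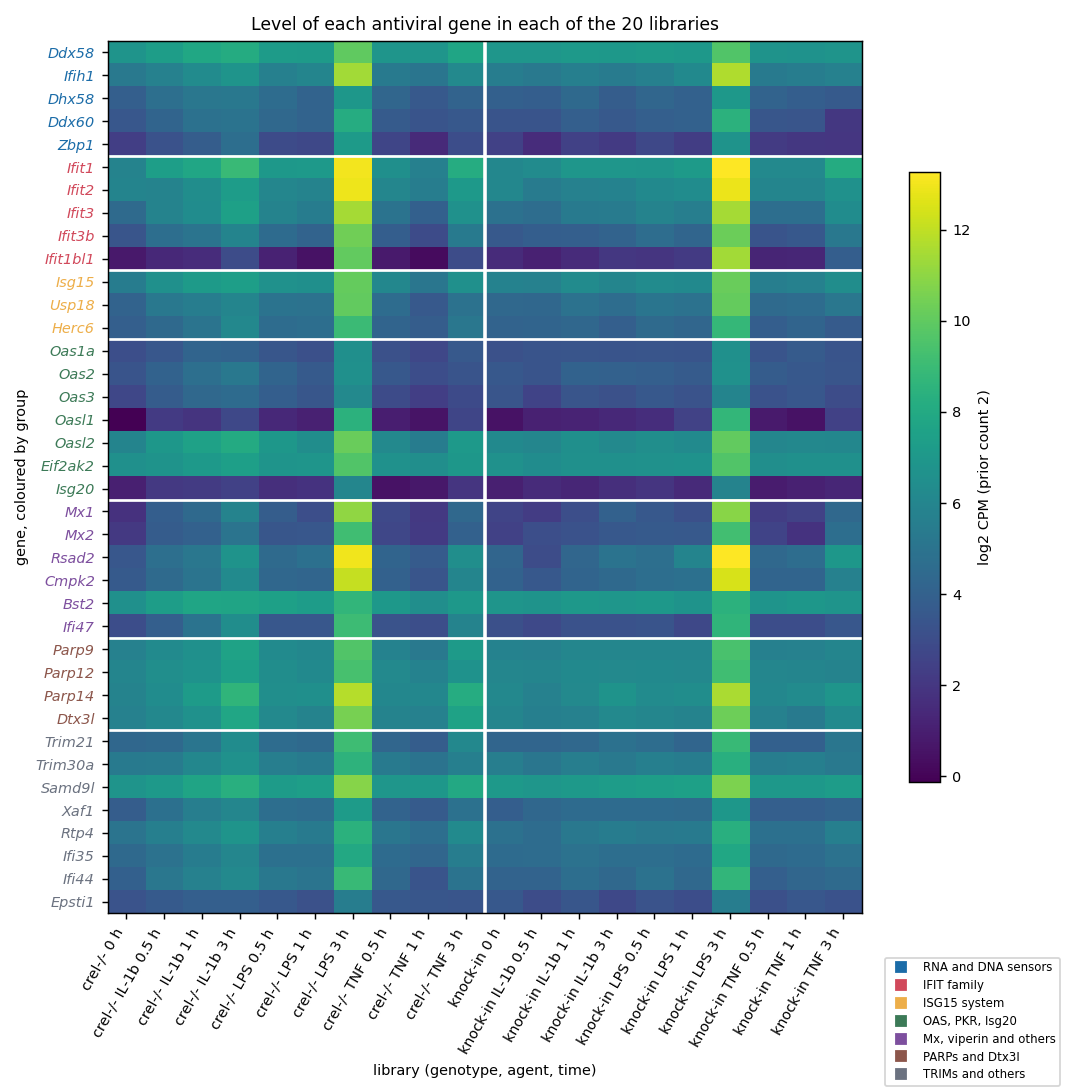
Level of each of the 38 members in each of the 20 libraries, as log2 CPM with a prior count of 2 (colour scale). Rows are members grouped by role and columns are libraries ordered by genotype, agent and hours. The LPS 3 h columns of both genotypes hold the highest values in all 38 rows, and the IL-1b 3 h column of crel-/- lies above that of the knock-in in all 38.

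The first line of this response is the sensors, which bind viral RNA or DNA. The 5 sensors rose by a median of 4.62 (log2) at 3 h of LPS. Ifih1, which encodes the double-stranded RNA sensor MDA5, was at 38.5 CPM in crel-/- and 45.9 CPM in the knock-in at 0 h. With LPS it was at 52.3, 62.0 and 2771 CPM at 0.5, 1 and 3 h in crel-/-, and at 52.4, 74.4 and 3239 CPM in the knock-in. The 3 h libraries stand far above all others, and the fitted change was 6.16 (SE 0.45, edgeR adjusted p = 1.5e-06). Ddx58, the sensor RIG-I of RNA ends, Dhx58, the related LGP2, Ddx60, a helicase, and Zbp1, a sensor of left-handed nucleic acid, rose by 2.93 to 4.97.

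The IFIT proteins bind foreign RNA ends and block their translation, and their genes lie side by side on chromosome 19. They rose by 6.77 to 9.73 (median 6.92, log2), a median below that of the virus restriction genes and above those of the other groups. Ifit1 was at 58.6 CPM in crel-/- and 68.2 CPM in the knock-in at 0 h, and at 129, 136 and 8498 CPM along the crel-/- LPS series and 118, 144 and 9822 CPM along that of the knock-in. Its values at 0.5 and 1 h were thus about alike and low, with the whole jump between 1 and 3 h (fitted change against 0 h 7.18, SE 0.66, edgeR adjusted p = 9.1e-06). Ifit1bl1, a gene of the same cluster, was at 1.53 and 2.72 CPM at 0 h and at 1055 CPM in crel-/- and 2776 CPM in the knock-in at 3 h of LPS. Its change of 9.73 (SE 0.53, edgeR adjusted p = 1.7e-07) was the largest of the list. Reads of 50 nt cannot always separate these copies: 51.2% of the 50-base stretches of Ifit3 also occur in Ifit3b, 7.14% of those of Ifit1 occur in Ifit1bl1 or Ifit1bl2, and 6.45% of those of Ifit1bl1 occur in Ifit1 or Ifit1bl2.

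ISG15 is a ubiquitin-like protein that is attached to other proteins, USP18 removes it and damps the interferon receptor, and HERC6 is the mouse ligase. Isg15 went from 45.5 CPM (crel-/-) and 56.0 CPM (knock-in) at 0 h to 1108 and 1169 CPM at 3 h of LPS, after 93.0 and 74.8 CPM at 1 h. Usp18 went from 17.4 and 20.8 CPM to 1058 and 1120 CPM, with 30.6 and 30.2 CPM at 1 h. Both genes thus reached nearly equal levels in the 2 genotypes, and their changes were 4.48 (SE 0.46) and 5.83 (SE 0.50). Herc6 rose by 4.89, with 12.5% of its 50-base stretches shared with other annotated genes.

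Among enzymes that act on RNA, the OAS proteins make the messenger that activates RNase L, EIF2AK2 (PKR) halts translation and ISG20 is an exonuclease. Oasl1, a family member without that enzyme activity, rose most, from 0.726 CPM in crel-/- and 1.27 CPM in the knock-in at 0 h to 354 and 428 CPM (8.61, SE 0.48, edgeR adjusted p = 1.0e-07). Its neighbour Oasl2 started at 60.1 and 74.1 CPM and reached 1184 and 1071 CPM (4.04, SE 0.55). The gene at the lower start thus had the larger change, while Oasl2 had the higher level per kilobase (186 against 136 CPM per kb in crel-/-). The other 5 rose by 2.98 (Oas3) to 5.04 (Isg20). Oas1a shares 57.6% of its 50-base stretches with Oas1g and Oas1b, so its value is uncertain.

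The virus restriction genes had the highest group median, 7.69. Rsad2, which encodes the radical enzyme viperin, was at 11.1 and 18.8 CPM at 0 h, at 27.7 CPM (crel-/-) and 61.3 CPM (knock-in) after 1 h of LPS, and at 8286 and 9938 CPM after 3 h. The change was 9.25 (SE 0.92, edgeR adjusted p = 1.7e-05). Cmpk2, the nucleotide kinase gene next to Rsad2 on chromosome 12, rose by 8.43, and the GTPase genes Mx1 and Mx2 by 8.75 and 6.94. Ifi47, a GTPase gene best known as a target of interferon-gamma, rose by 5.85. Bst2, the gene of tetherin that holds budding virus at the cell surface, started high, at 97.6 and 115 CPM, and rose least, by 1.83 (SE 0.27).

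PARP9, PARP12 and PARP14 are ADP-ribosyltransferase family members, and DTX3L is the ubiquitin ligase partner of PARP9. Parp14 was at 58.0 and 70.1 CPM at 0 h, at 94.0 and 86.6 CPM after 1 h and at 3567 and 3039 CPM after 3 h of LPS (5.65, SE 0.58). The other 3 rose by 3.27 to 4.55. Parp9 and Dtx3l lie head to head and their ends overlap, with 7.71% and 8.02% of their 50-base stretches on the opposite strand of the other.

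Among the remaining 8 genes, which include the ubiquitin ligases TRIM21 and TRIM30A, the rise ran from 2.13 (Epsti1) to 4.77 (Ifi44). Ifi44 went from 15.8 and 17.1 CPM at 0 h to 480 and 420 CPM, and Samd9l, the gene of a restriction factor of poxviruses, from 113 and 133 CPM to 1814 and 1577 CPM. Both had their jump between 1 and 3 h: at 1 h Ifi44 was at 32.4 and 20.9 CPM and Samd9l at 165 and 178 CPM.

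Per kilobase of annotated exon, the highest levels at 3 h of LPS belonged to Ifit1 (3199 CPM per kb in crel-/- and 3698 in the knock-in). Ifit2 followed with 1967 and 1939 CPM per kb, and Rsad2 had 1915 and 2296 CPM per kb. The order of Ifit2 and Rsad2 differed between the genotypes, so they cannot be ranked against each other. Oas3 was lowest, with 10.2 and 8.61 CPM per kb. In plain counts, which are not corrected for length, 5 genes held 56.0% of all member counts in crel-/- (Ifit1, Rsad2, Ifit2, Cmpk2 and Parp14) and 58.4% in the knock-in, where Ifih1 took the place of Parp14.

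Before 3 h of LPS no member passed the test. After 0.5 h of LPS 0 of 38 members rose (3.56% of all genes did, median of the members 0.51), and after 1 h 0 of 38 (7.58% of all genes, median 0.39). At an unadjusted p under 0.05 there were 2 members at each time, and DESeq2 called 1 and 2. Without the crel-/- library of LPS 1 h, 1 member was called at 1 h. In crel-/-, 10 members were at least 1 above 0 h on the log2 scale at 0.5 h and 8 at 1 h, and in the knock-in 3 and 4. The share of all genes so far above 0 h was not counted at these times. Most members still lay above 0 h: 38 in crel-/- and 36 in the knock-in at 0.5 h (50.3% and 50.5% of all genes), and 35 and 31 at 1 h (50.4% and 49.4% of all genes). Since the LPS and 0 h libraries belong to sets that differ in fibronectin and macrophage transcripts, these small early differences cannot be told apart from that split.

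**Figure D2:**
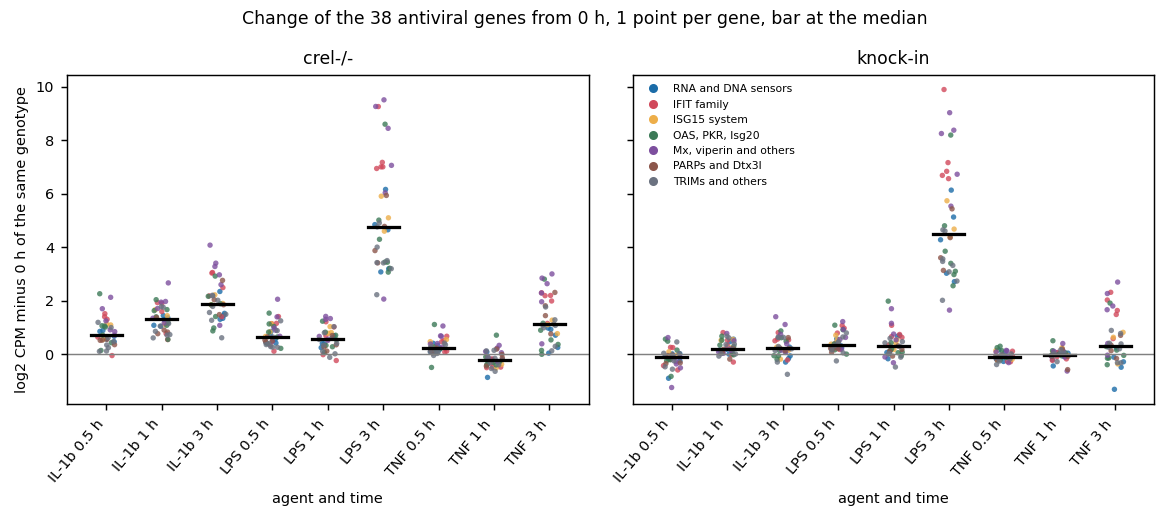
Change of each member against 0 h of the same genotype, as a difference of log2 CPM, for 9 stimulated conditions. Each point is 1 member in 1 library, coloured by role, the bar is the median, and the genotypes have a panel each. LPS 3 h is the condition where all 38 members lie above 1 in both genotypes. After 3 h of IL-1b the median of crel-/- (1.89) lies above that of the knock-in (0.22), while the ranges overlap (0.61 to 4.08 against -0.76 to 1.40).

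After IL-1b, the median of the members lay higher with each time in crel-/- and near the 0 h level in the knock-in. The median difference from 0 h was 0.71, 1.32 and 1.89 at 0.5, 1 and 3 h in crel-/- and -0.12, 0.20 and 0.22 in the knock-in. At 1 h 28 members in crel-/- and 0 in the knock-in lay at least 1 above 0 h, and the share of all genes was not counted there. The early values cross the 2 sets of libraries described above, so a response to IL-1b and that split cannot be told apart. At 3 h, 35 members in crel-/- lay at least 1 above 0 h, the exceptions being Oas1a, Eif2ak2 and Epsti1 (7.97% of all genes lay so high). In the knock-in 2 did, Mx1 and Mx2 (3.06% of all genes). The course differed between members: in crel-/- Oas1a (17.7 against 16.5 CPM) and Bst2 (219 against 206 CPM) were higher at 1 h than at 3 h. Ifit1 was at 167, 224 and 488 CPM at 0.5, 1 and 3 h in crel-/- and at 81.2, 119 and 119 CPM in the knock-in. Parp14 was at 82.9, 150 and 394 CPM in crel-/- and at 54.7, 73.3 and 107 CPM in the knock-in. Rsad2 was at 26.6, 36.7 and 110 CPM against 7.77, 19.1 and 31.4 CPM. In these genes every IL-1b value of crel-/- lay above the knock-in value of the same time, and the gap in CPM was widest at 3 h. From 0.5 to 3 h of IL-1b, without the 0 h libraries, the members' median rise was 1.17 in crel-/- (24 of 38 by at least 1) and 0.30 in the knock-in (2 of 38 by at least 1). For this step the share of all genes was not counted.

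In the fit over both genotypes, 18 of 38 members rose at 3 h of IL-1b (16.9% of all genes rose), with a median of 1.19. The largest changes were those of Mx1 (2.86, SE 0.61), Rsad2 (2.22, SE 0.74) and Mx2 (2.19, SE 0.48). By role, none of 5 sensors and none of the 3 genes of the ISG15 system rose, against 3 of 5 IFIT genes, 3 of 7 RNA enzymes, 4 of 6 virus restriction genes, 3 of 4 of the PARP group and 5 of 8 others. The fit assumes the same response in both genotypes, and a response that differs between them enters its spread. Without the crel-/- 0 h library, or without the crel-/- IL-1b 3 h library, 0 members were called, and without the knock-in IL-1b 3 h library 34 were. At 0.5 h 0 of 38 rose (5.75% of all genes; 3 members at an unadjusted p under 0.05, 1 called by DESeq2). At 1 h 1 of 38 rose (8.38% of all genes), Xaf1 with 1.27 (SE 0.35, edgeR adjusted p = 0.034), and this call was lost without either 0 h library or the crel-/- IL-1b 1 h library.

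With TNF, members passed the test at 3 h and not before. At 0.5 h 0 of 38 members rose (0.314% of all genes) and at 1 h 0 of 38 (2.25% of all genes), with none at an unadjusted p under 0.05 and none called by DESeq2 at either time. At 3 h 12 of 38 rose (18.7% of all genes), with a median of 0.71 over the list. They were 4 IFIT genes, Oasl1, Mx1, Mx2, Rsad2, Cmpk2, Parp14, Trim21 and Rtp4. Rsad2 was at 18.0, 13.0 and 90.4 CPM along the crel-/- TNF series and at 20.7, 24.7 and 122 CPM along that of the knock-in (fitted 3 h change 2.83, SE 0.74). Ifit1 was at 93.1, 51.7 and 288 CPM in crel-/- and at 73.4, 71.2 and 278 CPM in the knock-in. For these genes the 3 h libraries of both genotypes stood above the earlier ones. Parp14 instead went to 288 CPM in crel-/- and 114 CPM in the knock-in at 3 h, from 66.0 and 80.0 CPM at 1 h. The count of 12 fell to 0 without the crel-/- 0 h library, 7 without the knock-in 0 h library, 5 without the crel-/- TNF 3 h library and 4 without the knock-in TNF 3 h library. Macrophage markers summed to 6175 CPM (crel-/-) and 5934 CPM (knock-in) after 3 h of TNF, above every other library. Of these markers 5 of 15 rose and none fell, Cd14, a co-receptor of LPS, by 2.81, C1qa by 0.62 and C1qb by 0.47, and their part in the result was not tested.

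Taken per genotype, 22 members in crel-/- lay at least 1 above 0 h after 3 h of TNF (6.17% of all genes) and 9 in the knock-in (4.48% of all genes). Those 9 were Ifit1, Ifit3, Ifit3b, Ifit1bl1, Oasl1, Mx1, Mx2, Rsad2 and Cmpk2. After LPS for 3 h all 38 did in each genotype, where 14.1% of all genes did in crel-/- and 12.2% in the knock-in.

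The response to LPS was the largest. All 38 members were higher after 3 h of LPS than after 3 h of TNF (median 3.83, 24.3% of all genes higher) and than after 3 h of IL-1b (median 3.36, 23.8% of all genes higher). In crel-/-, a member's level after 3 h of IL-1b was 15.2% of its LPS 3 h level at the median, from 0.719% for Ifit1bl1 to 50.6% for Bst2. After TNF it was 9.37%, from 0.723% for Ifit1bl1 to 31.3% for Bst2. In the knock-in the medians were 5.22% for IL-1b and 5.77% for TNF. IL-1b and TNF differed from each other in 2 of 38 members, both higher after IL-1b (7.89% of all genes higher): Ddx60 by 1.44 and Oas2 by 1.36. Without the crel-/- IL-1b 3 h library or the knock-in TNF 3 h library this count was 0, without the crel-/- TNF 3 h library 1, and without the knock-in IL-1b 3 h library 9.

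**Figure D3:**
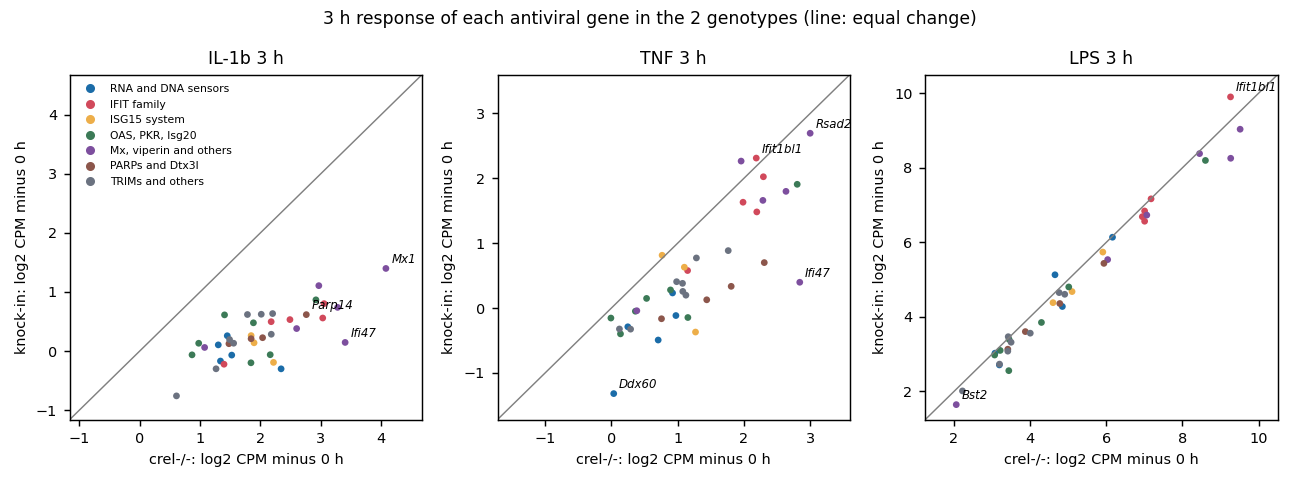
Change of each member at 3 h against 0 h in crel-/- (horizontal axis) and in the knock-in (vertical axis), both as differences of log2 CPM, with 1 panel each for IL-1b, TNF and LPS. Points are members and the line marks equal change. After LPS the points lie near the line, and after IL-1b all lie below it.

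The genotype comparison sets the knock-in beside crel-/- in cells without c-Rel. As the labels name no separate cultures, the RelA change and a difference between fibroblast preparations cannot be told apart. In the pairs at 0 and 0.5 h the markers Thy1 (0.66) and Fn1 (0.30) were called as higher in the knock-in and Lyz2 (-0.53) as lower. The other fibroblast and macrophage markers were not called there. After 3 h of LPS the levels in the knock-in and in crel-/- lay close together. The difference, knock-in minus crel-/-, had a median of -0.11 on the log2 scale over the 38 members and lay within 0.5 of 0 for 37 of them, against 76.4% of all genes. Macrophage markers summed to 4707 CPM in crel-/- and 3200 CPM in the knock-in in this pair, with 5 of 15 lower in the knock-in, and their part was not tested. Ifit1bl1 was the exception, higher in the knock-in by 1.40 (SE 0.34, 95% interval 0.61 to 2.18, edgeR adjusted p = 0.051). In the fit with a separate term for this pair, 0 of 38 members were called in either direction (6.95% of all genes were), with 1 member at an unadjusted p under 0.05, and limma-voom called 1 and DESeq2 0. Without the IL-1b 3 h or the TNF 3 h pair, 1 member, higher in the knock-in, was called. The intervals were wide, as 1 library stood on each side: that of Ifit1 ran from -1.44 to 1.86, that of Rsad2 from -1.94 to 2.46 and that of Eif2ak2 from -0.51 to 0.41. The LPS 3 h difference minus that of the pairs before 3 h was called for 0 of 38 members (3.03% of all genes, 1 member at an unadjusted p under 0.05, none by DESeq2).

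Over all 10 pairs 2 of 38 members were lower in the knock-in (7.81% of all genes were), Ddx58 by 0.39 (SE 0.12, edgeR adjusted p = 0.049) and Rtp4, the gene of a chaperone of receptor transport, by 0.50 (SE 0.14, edgeR adjusted p = 0.039), each in 9 of 10 pairs. The median of the list was -0.35. This share lies below the background, and the call for Ddx58 was lost in each fit that left out any single pair other than 0 h. Without the IL-1b 0.5, 1 or 3 h pair, the LPS 0.5 h pair, or the TNF 0.5 or 3 h pair, 0 members were called, without the LPS 1 h pair 1, and without the TNF 1 h pair 5. By time, 0 of 38 were lower in the pairs at 0 and 0.5 h (1.73% of all genes, median -0.16) and 0 of 38 at 1 h (2.28%, median -0.21), with none at an unadjusted p under 0.05 and none called by DESeq2 at either. These values pool unlike pairs. The members' median was 0.19 at 0 h, and -0.68, -0.14 and -0.15 after 0.5 h of IL-1b, LPS and TNF. After 1 h it was -0.78, -0.10 and 0.40 in the same order. At 3 h 6 of 38 were lower (8.84% of all genes, median -0.60): Ddx58, Parp9, Parp12, Dtx3l, Trim21 and Samd9l, by 0.64 to 1.01. That count was 0 without the IL-1b 3 h pair, 0 without the TNF 3 h pair and 14 without the LPS 3 h pair. The 3 h difference minus that at 0 and 0.5 h was called for 0 of 38 (5.12% of all genes in either direction, 3 members at an unadjusted p under 0.05, 3 lower by DESeq2, and 7 lower without the LPS 3 h pair).

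**Figure D4:**
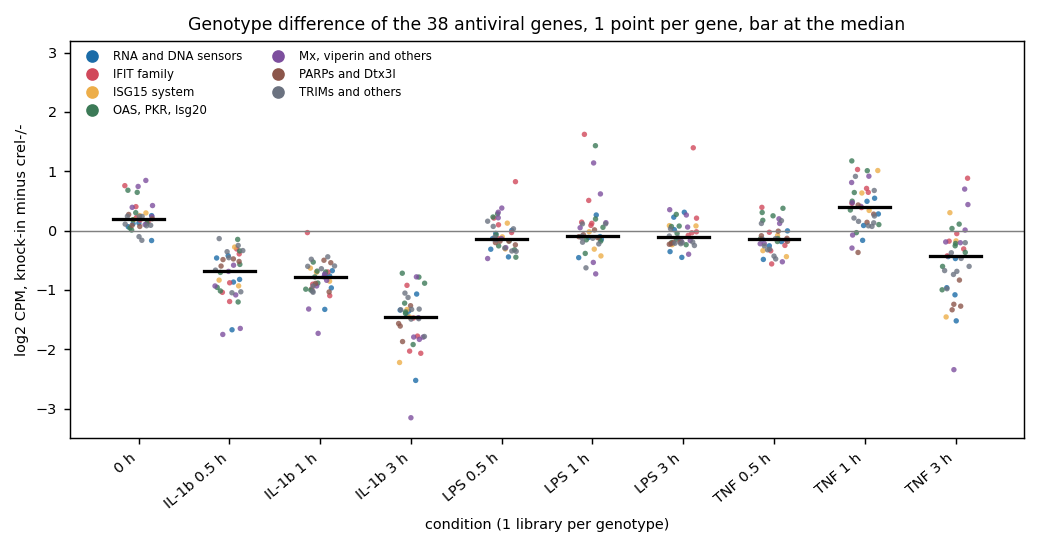
Difference between genotypes (knock-in minus crel-/-, log2 CPM) of each of the 38 members in each of the 10 conditions. Points are members and the bar is their median. All 38 lie below 0 after each time of IL-1b, with a median of -1.45 at 3 h, while after 3 h of LPS the median is -0.11 with Ifit1bl1 apart at 1.40.

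The 3 h pairs were not alike. After 3 h of IL-1b all 38 members were lower in the knock-in (50.2% of all genes were), 33 of them by at least 1, with a median of -1.45. After 3 h of TNF 31 were lower (49.5% of all genes were), 7 of them by at least 1, with a median of -0.43. The share of all genes lower by at least 1 was not counted. A term for the IL-1b and TNF 3 h pairs together, added after the levels had been seen, called 15 of 38 members as lower (7.38% of all genes), with a median of -0.98. They comprised 3 of 5 sensors, none of 5 IFIT genes, 1 of 3 of the ISG15 system, 1 of 7 RNA enzymes, 1 of 6 virus restriction genes, 4 of 4 of the PARP group and 5 of 8 others. Without the IL-1b 3 h pair 3 members were called. Of the macrophage markers 1 of 15 was lower in these pairs, and after 3 h of TNF they summed to 6175 CPM in crel-/- and 5934 CPM in the knock-in.

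The members named next were singled out after their values had been seen. Ifi47 was at 85.4 CPM in crel-/- and 9.42 CPM in the knock-in after 3 h of IL-1b, and at 57.9 and 11.2 CPM after 3 h of TNF, from 7.91 and 8.49 CPM at 0 h. Its knock-in values thus stayed near the unstimulated level with both cytokines, while LPS for 3 h gave 531 and 402 CPM (difference in the IL-1b and TNF 3 h pairs -2.79, SE 0.39, edgeR adjusted p = 0.0027). Herc6 behaved alike, with 70.4 against 14.9 CPM after IL-1b and 36.4 against 13.2 CPM after TNF (-1.89, SE 0.24, edgeR adjusted p = 0.00097). Trim21, which encodes an antibody receptor in the cytosol, was at 82.3 against 29.1 CPM and at 69.2 against 35.0 CPM (-1.24, SE 0.15, edgeR adjusted p = 0.00035). Parp14 had a difference of -1.61 (SE 0.31, edgeR adjusted p = 0.013). Differences were not called for Ifit1 (-1.04, SE 0.54), Rsad2 (-0.63, SE 0.74) and Mx2 (-0.37, SE 0.46), whose standard errors were larger than that of Trim21.

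The LPS 3 h difference minus that of the IL-1b and TNF 3 h pairs was above 0 by a median of 0.90, and 1 of 38 members was called as higher (0.271% of all genes). This was Ddx60, with 1.74 (SE 0.32, edgeR adjusted p = 0.041). It was at 291 CPM in crel-/- and 360 CPM in the knock-in after LPS, at 31.4 and 12.1 CPM after IL-1b and at 11.7 and 3.94 CPM after TNF, so the knock-in was the higher after LPS and the lower after both cytokines. The call was lost without the pair at 0 h, LPS 0.5 h, LPS 1 h, TNF 0.5 h, IL-1b 3 h or TNF 3 h, with values from 1.67 to 1.87. The LPS side of this comparison is 1 pair of single libraries, and its spread is taken from the other pairs. The count of members was 3 without the IL-1b 1 h pair and 2 without the TNF 3 h pair.

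Sorted by agent, in a model added after the levels had been seen, the IL-1b pairs held nearly all members called. In the 3 IL-1b pairs 20 of 38 members were lower in the knock-in (2.62% of all genes), and all 38 had a value below 0, from -0.54 to -2.12 with a median of -1.02. Mx1 was at 14.7, 21.4 and 57.4 CPM in crel-/- and at 4.56, 8.46 and 16 CPM in the knock-in at 0.5, 1 and 3 h, lower at every time (-1.64, SE 0.14, edgeR adjusted p = 0.00032). Oas3 was at 13.2, 20.9 and 23.6 CPM against 5.63, 10.3 and 8.86 CPM (-1.22, SE 0.16, edgeR adjusted p = 0.0025). Ifit1 had -1.33 (SE 0.24, edgeR adjusted p = 0.027) and Isg15 -1.05 (SE 0.21, edgeR adjusted p = 0.033). Lower were 2 of 5 sensors, 3 of 5 IFIT genes, 2 of 3 of the ISG15 system, 4 of 7 RNA enzymes, 5 of 6 virus restriction genes, 0 of 4 of the PARP group and 4 of 8 others. The count was 10 without the IL-1b 0.5 h pair, 8 without the 1 h pair and 6 without the 3 h pair. All 38 members were already lower in the knock-in after 0.5 h of IL-1b (49.9% of all genes were), with a median of -0.68. At 0 h 35 of 38 members were instead higher in the knock-in (48.4% of all genes were lower), with a median of 0.19. An effect of IL-1b within 0.5 h and a standing difference between the IL-1b cultures of the genotypes cannot be told apart. Summed macrophage markers were also lower in the knock-in in the IL-1b pairs, at 3016, 3685 and 3286 CPM against 3709, 4326 and 3964 CPM. Of these markers 2 of 15 were called as lower, and their part in the result was not tested.

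In the 3 LPS pairs 1 of 38 members was called in either direction (2.13% of all genes), Ifit1bl1, which was higher in the knock-in by 1.36 (SE 0.15, edgeR adjusted p = 0.0013), a call lost without the LPS 3 h pair. In the 3 TNF pairs 0 of 38 were lower (2.34% of all genes, 4 members at an unadjusted p under 0.05 in either direction). These pairs did not lie on 1 side. After 1 h of TNF 33 of 38 members were higher in the knock-in (median 0.40, with 48.0% of all genes lower). By contrast 29 were lower after 0.5 h (48.3% of all genes) and 31 after 3 h (49.5% of all genes). Ifit1bl1 was higher in the TNF pairs by 0.83 (SE 0.18, edgeR adjusted p = 0.032), a call lost without the TNF 1 h or 3 h pair. Ifit1bl1 was also at 2.72 CPM in the knock-in against 1.53 CPM in crel-/- at 0 h, and in the IL-1b pairs its value was -0.54 (SE 0.19, edgeR adjusted p = 0.17). The IL-1b difference minus the LPS difference was called for 0 of 38 members (0% of all genes, with a list median of -0.93 and 28 members at an unadjusted p under 0.05, 10 by DESeq2). That 0% holds for the adjusted edgeR test. The shares of all genes at the unadjusted threshold and by DESeq2 are not given, so the 28 and 10 are not read as results about the members. The IL-1b difference minus the TNF difference was called for 3 of 38 (0.185% of all genes): Oas2 with -1.16, Oas3 with -1.74 and Mx1 with -1.59. Without any of the IL-1b pairs this last count was 0, and without the TNF 1 h or 3 h pair it was 1. The IL-1b and LPS libraries of 0.5 and 1 h belong to the same set of 8 described above, and the TNF libraries to the other.

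Interferon genes themselves were read beside their targets. Ifnb1, the gene of interferon-beta, had 0 counts at 0 h in both genotypes. It had 5, 106 and 277 counts along the crel-/- LPS series and 2, 148 and 942 counts along that of the knock-in, which is 0.453, 10.3 and 40.2 CPM against 0.193, 15.9 and 118 CPM. In every IL-1b and TNF library it had at most 2 counts, under the floor of 3. The knock-in value was the higher after 1 and 3 h of LPS, with 1 library on each side. The spread at such levels was not measured, since the gene was near 0 in the pairs outside the LPS series. Ifna1, Ifna2, Ifna4, Ifna5, Ifne, Ifnl2 and Ifnl3 had at most 1 count in any library.

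Of 6 STAT and IRF genes 5 rose at 3 h of LPS (29.2% of all genes rose). Irf7, a driver of interferon genes, rose by 4.67, Stat2 by 3.04 and Irf9 by 1.81, while Irf3, which is activated by phosphorylation, had 0.03 (SE 0.11). Irf1, whose product also binds interferon response elements, followed another course. It was at 27.4 CPM at 0 h in crel-/- and at 809, 691 and 102 CPM after 0.5, 1 and 3 h of IL-1b, at 597, 550 and 264 CPM after TNF and at 126, 544 and 1026 CPM after LPS. In the knock-in it was at 29.3 CPM at 0 h, between 29.5 and 63.9 CPM in the other 8 stimulated libraries, and at 604 CPM after 3 h of LPS. The knock-in was lower in 9 of 10 pairs (-2.46, SE 0.49, edgeR adjusted p = 0.0080), and the early high values of crel-/- had no counterpart in the knock-in libraries. In the IL-1b pairs Irf7 (-1.30) and Irf9 (-0.59) were lower, 2 of 6 of this list (2.62% of all genes).

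**Figure D5:**
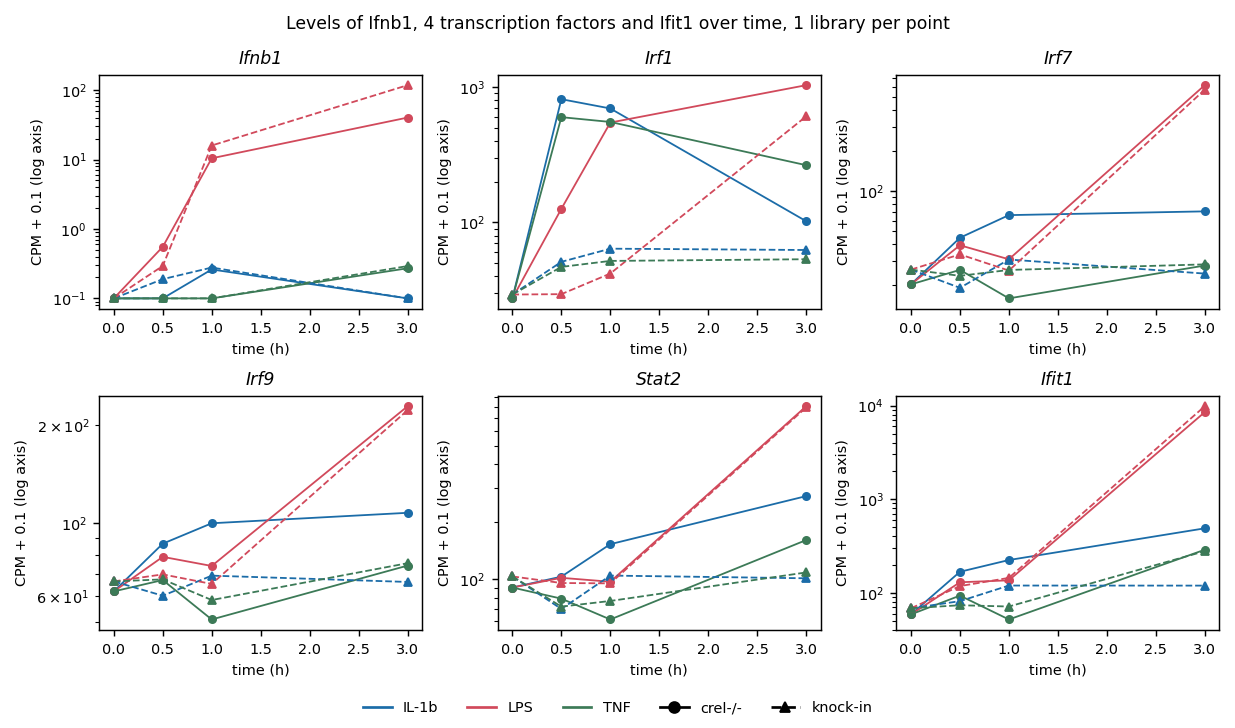
Level of Ifnb1, Irf1, Irf7, Irf9, Stat2 and the member Ifit1 along each agent's series, in CPM plus 0.1 on a log axis against hours, with 1 line for each genotype and agent and 1 library for each point. Ifnb1 leaves the floor with LPS alone, and Irf1 is high at 0.5 and 1 h of IL-1b and TNF in crel-/- but not in the knock-in.

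Of 6 receptor and kinase genes 5 were lower in the knock-in at 3 h (8.84% of all genes were), among them the interferon receptor genes Ifnar1 (-0.63, SE 0.04, edgeR adjusted p = 1.4e-06) and Ifnar2 (-0.82, SE 0.09) and the kinase gene Tyk2 (-0.87, SE 0.13). Of 10 genes of TLR signalling and nucleic acid adaptors 4 were lower, Myd88, Tbk1, Tmem173 and Ikbke, a kinase gene with -1.41 (SE 0.15, edgeR adjusted p = 0.00011). Of 4 feedback genes Ptpn1 and Ptpn2 were lower. After 3 h of LPS 6 of the 10 adaptor genes rose (29.2% of all genes) and 2 fell, among those rising Tlr3, the endosomal sensor of double-stranded RNA (5.46, SE 0.28), and all 4 feedback genes rose. At 3 h of IL-1b 4 of the 10 adaptor genes and all 4 feedback genes rose (16.9% of all genes), and none of the 6 STAT and IRF genes passed the test.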

How the data were processed

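The authors deposited 1 table of whole-number read counts per gene for 20 libraries, not normalized. The build mm10 and the tools STAR, cutadapt 1.12, DESeq2 and featureCounts 1.5.1 are named in the submitters' processing notes. Which annotation was counted, on which strand, and how multiply mapping reads were handled is not given in the sources used here, so values of near-identical, overlapping or antisense genes are uncertain. Per the labels' protocols, a stranded polyA kit, 12 PCR cycles and single-end reads of 50 nt were used.

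The 14023 genes that reached 1 CPM in 2 or more libraries were tested with edgeR 4.0.16 in R 4.3.3 (quasi-likelihood F test, robust, TMM scaling) and Benjamini-Hochberg adjustment at 0.05 over all of them. Responses and overall genotype differences came from a model of genotype and condition (9 residual degrees of freedom), in which the genotypes serve as replicates. Genotype differences by time or by class of pair had 7 residual degrees of freedom. Models by agent (6) and for the IL-1b and TNF 3 h pairs were added after the values had been seen. Log2 CPM of single libraries has a prior count of 2. Standard errors are the fitted change divided by the root of F, and the common coefficient of variation, called biological by edgeR, was 10.6%. With 1 library per group, this value can include responses that differ between the genotypes and is no spread between replicate cultures. Scripts were tested on simulated data. Alternatives were RLE scaling, library totals, no count filter, DESeq2 1.42.0, limma-voom (3.58.1), a genotype term per period and leaving out libraries or pairs. Member counts at an unadjusted p, by another tool, or without a library or pair stand without the share of all genes so called. They are not read as results about the members. Every column was matched to a sample. PCR copies cannot be told apart, so floors cover counting error only.

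The members and gene lists were chosen with earlier results of these data known. Named by rule were, per role, the member with the largest LPS 3 h change and the member with the highest CPM per kb in crel-/-, any member not called at LPS 3 h and any whose genotype difference opposes the majority; other members named were singled out after their values had been seen. Shared 50-base stretches were counted in GENCODE vM21 transcripts. 1 gene of the STAT and IRF list is not reported here.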

Additional observations from a re-analysis of the deposited data

Results flagged for a closer look

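In 4 members the genotype difference itself differed between conditions by a test of that difference (edgeR, adjusted over all genes tested). For Ddx60 the knock-in minus crel-/- difference was higher by 1.74 (log2) in the LPS 3 h pair than in the IL-1b and TNF 3 h pairs (adjusted p = 0.041). The LPS side is 1 pair of single libraries whose spread is taken from the other pairs, and the call was lost without the pair at 0 h, LPS 0.5 h, LPS 1 h, TNF 0.5 h, IL-1b 3 h or TNF 3 h. For Oas2, Oas3 and Mx1 it was lower in the IL-1b pairs than in the TNF pairs, with values of -1.16 (adjusted p = 0.039), -1.74 (adjusted p = 0.030) and -1.59 (adjusted p = 0.030). Mx1 was lower in the knock-in in all 3 IL-1b pairs. The model behind the latter values was added after the levels had been seen. With DESeq2, 16 members were called in the IL-1b against TNF comparison and 3 in that of LPS 3 h, so these 4 are not all the members that could have been picked out.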

How the results depend on the processing

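Each group is 1 library, so every call rests on few libraries. The 38 of 38 calls for LPS 3 h against 0 h, LPS 1 h, TNF 3 h and IL-1b 3 h held in every alternative that was run. Direction was followed for named or called members in chosen comparisons, and only where the main fit had called them. None reversed, while the call was kept in 529 of these alternatives and lost in 145. The pairs of libraries by condition are a term of each model. As the labels give no replicate numbers, no pairing beyond that by condition was possible.

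Member counts that moved by over 1.5 times were as follows, and the cause was not tested beyond what a smaller set of libraries or a longer list of genes tested brings. The share of all genes called in these alternatives is not given here. The counts therefore show how far a result moved and are not read as results about the members. With DESeq2, 1 member was higher at LPS 0.5 h, 2 at LPS 1 h, 1 at IL-1b 0.5 h and 6 at IL-1b 1 h. DESeq2 also called 12 lower in all pairs, 16 at 3 h, 3 for 3 h minus early, 35 in the IL-1b pairs, 10 for IL-1b minus LPS and 16 for IL-1b minus TNF, and 3 higher for LPS 3 h minus the IL-1b and TNF 3 h pairs. With limma-voom, 2 were higher at IL-1b 1 h, 1 for IL-1b against TNF at 3 h, 10 lower in all pairs (1 higher), 10 lower at 3 h (1 higher), 1 higher in the LPS 3 h pair, 4 higher for LPS 3 h minus the other 3 h pairs, 31 lower in the IL-1b pairs and 2 for IL-1b minus LPS. With no count filter, 0 were higher at IL-1b 1 h, 7 at IL-1b 3 h, 7 at TNF 3 h and 0 for IL-1b against TNF at 3 h; 0 were lower in all pairs, 1 at 3 h and 10 in the IL-1b pairs, and 0 higher for LPS 3 h minus the other 3 h pairs. With library totals only, 1 was higher for IL-1b against TNF at 3 h and 1 in the LPS 3 h pair.

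Leaving out 1 library or pair in turn gave 0 to 1 members at LPS 1 h and at IL-1b 1 h, 0 to 34 at IL-1b 3 h, 0 to 7 at TNF 3 h and 0 to 9 for IL-1b against TNF at 3 h. For the genotype it gave 0 to 5 lower and 0 to 1 higher in all pairs, 0 to 14 lower and 0 to 1 higher at 3 h, 0 to 7 lower for 3 h minus early, 0 to 1 higher in the LPS 3 h pair, 0 to 3 for LPS 3 h minus the other 3 h pairs and 3 to 17 lower in the IL-1b and TNF 3 h pairs. By agent it gave 6 to 10 lower for IL-1b, 0 to 1 higher for LPS and for TNF, and 0 to 2 for IL-1b minus TNF.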
